A study of Mus musculus with 6 samples.

Results

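The genes described here, 38 in number, encode nuclear receptors and their coregulators in mouse liver and are 38 of the 54446 genes listed for each library. They were chosen by symbol from a fixed list of nuclear receptor genes and genes of the proteins that bind to those receptors; the receptors of the clock, of sterols and of bile acids were left out. Of the 38 genes, 36 passed the filter on low counts and were tested, and the other 2, Vdr and Hnf4g, were near the limit of detection.

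The study asked how loss of flavin-containing monooxygenase 5 (FMO5), an enzyme of the endoplasmic reticulum of hepatocytes, changes the liver. RNA was sequenced from the livers of 3 wild-type (WT) C57BL/6J males and 3 Fmo5-/- males made on the C57BL/6J background, all 32 weeks old, on standard chow, with livers taken in the morning. The gene was disrupted in the whole body, not in the liver alone. Each library is 1 mouse, so the spread given below is between mice.

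Nuclear receptors are transcription factors that bind DNA at short hormone response elements, and most are switched by a small lipid-soluble ligand such as a fatty acid, a steroid, a retinoid or thyroid hormone. Many of those in the liver work as a pair with a retinoid X receptor (RXR). With ligand they recruit coactivators of the p160 family and the Mediator complex, and without it many recruit corepressors such as NCOR1. In hepatocytes they set fatty acid oxidation, lipoprotein secretion, drug clearance and the response to hormones.

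The targeted gene followed the labels. Fmo5 (chr3:97628804-97655282, plus strand, mm10) had 39808, 37405 and 30239.7 normalized counts in WT mice and 1071, 1102 and 1194 in Fmo5-/- mice, a log2 fold change of -5.00 ± 0.14 (SE, n = 3 per genotype, edgeR adjusted p = 2.79e-07). A normalized count is the number of reads on a gene scaled to the mean library of the 6. The 6 libraries held 44886286 to 52338675 reads on genes. The hepatocyte markers overlapped between genotypes, at a sum of 108823 to 139700 CPM (counts scaled to library size) in WT and 111479 to 137187 in Fmo5-/- mice. The summed markers of cholangiocytes, stellate cells, endothelial cells, erythroid cells and pancreas also overlapped between genotypes. Those of Kupffer cells did not: they summed to 236 to 282 CPM in WT and 371 to 669.7 in Fmo5-/- mice, with all 9 genes above 0 on the log2 scale and 1 called. All 8 T and B cell markers were above 0 too, none of them called, with sums of 7.11 to 9.49 and 10.5 to 21.5 CPM. The summed adipocyte markers, given with Pparg below, did not overlap either and were lower in Fmo5-/- mice. In whole liver, fewer cells of a type and less RNA per cell cannot be told apart, and the part of these shifts in the receptor values was not tested.

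No member passed the test. At an edgeR adjusted p under 0.05, 0 of the 36 tested members were higher and 0 were lower in Fmo5-/- liver, where 1.37% of the 16734 genes tested were called in either direction. DESeq2 called 0 higher and 1 lower, Esr1, against 8.93% of the 15634 genes to which it gave an adjusted p. At an unadjusted edgeR p under 0.05 there were 6 members, 2 higher and 4 lower, with a background of 21.8%. The values of the 3 WT and 3 Fmo5-/- mice did not overlap for 7 members (19.4% of 36), against 27.4% of all genes tested. By each of these counts the share of members was below that of all genes tested. With no filter on low counts it was above, at 4 of 38 members called by edgeR, all lower, beside 1989 of 34200 genes. These 2 shares are not alike, since the filter passed 36 of the 38 members but only 16734 of the 34200 genes. Of the 36, 16 had a log2 fold change above 0 and 20 below 0, and the median was -0.02 beside 0.01 for all genes tested.

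Confidence intervals bound the size of change that these mice could have hidden. On the log2 scale the 95% confidence interval of the change lay within ±0.5 for 24 of the 36 members and within ±1 for 35, all but Nr4a1. Some changes called among the target genes below are smaller than 0.5. The intervals of Esr1 and Pparg reached -0.81, that of Ppara -0.79, that of Rora -0.70 and that of Rarg 0.73. The median standard error was 0.114 for the members and 0.149 for all genes tested. Estimates ran from -0.50 for Esr1 to 0.57 for Nr4a1, and the adjusted p from 0.0891 to 0.994.

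**Figure D1:**
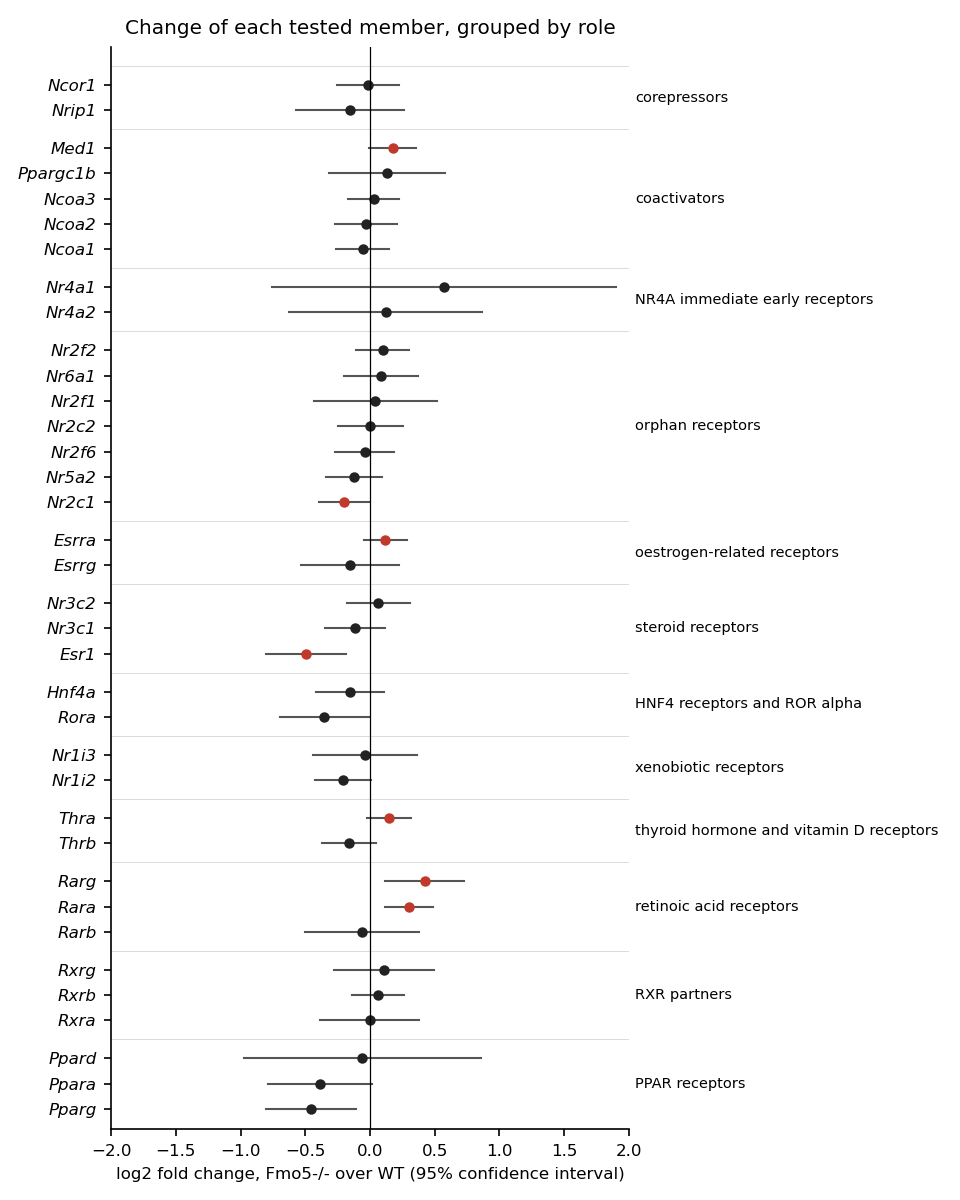
Log2 fold change of the 36 tested members, Fmo5-/- over WT (horizontal axis), in groups by role, with lines for the 95% confidence interval from edgeR. Red points mark the 7 members whose 3 WT and 3 Fmo5-/- values did not overlap (Esr1, Nr2c1, Rara, Rarg, Thra, Esrra and Med1), and the interval of Nr4a1 is the widest.

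The receptors spanned a wide range of levels. On a scale per length (RPKM, the count scaled to the size of the library and to the length of exon not shared with another gene), Hnf4a stood first at 123 ± 12.6 (SD, n = 3) in WT and 111 ± 13.1 in Fmo5-/- liver. HNF4 alpha is the receptor that keeps hepatocytes differentiated, and it needs no added hormone. Nr1i3 followed at 64.5 ± 17.4 and 62.8 ± 5.44 RPKM, Rxra at 61.9 ± 16.0 and 61.8 ± 4.82, and Nr2f6 at 61.1 ± 2.67 and 59.5 ± 7.32. These 3 do not differ beyond their spread on this scale, but over all exon bases Nr2f6 would read 27.9 in WT and 27.1 in Fmo5-/- liver and Nr1i3 16.2 and 15.8, so the places of both in this order are uncertain. Next came Nr1i2 at 37.5 ± 2.86 and 32.4 ± 3.0 RPKM and Ppara at 22.4 ± 3.05 and 17.1 ± 3.82. At the lower end of the tested members were Esrrg, Nr2f1 and Nr4a2, all under 0.5 RPKM in every mouse.

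**Figure D2:**
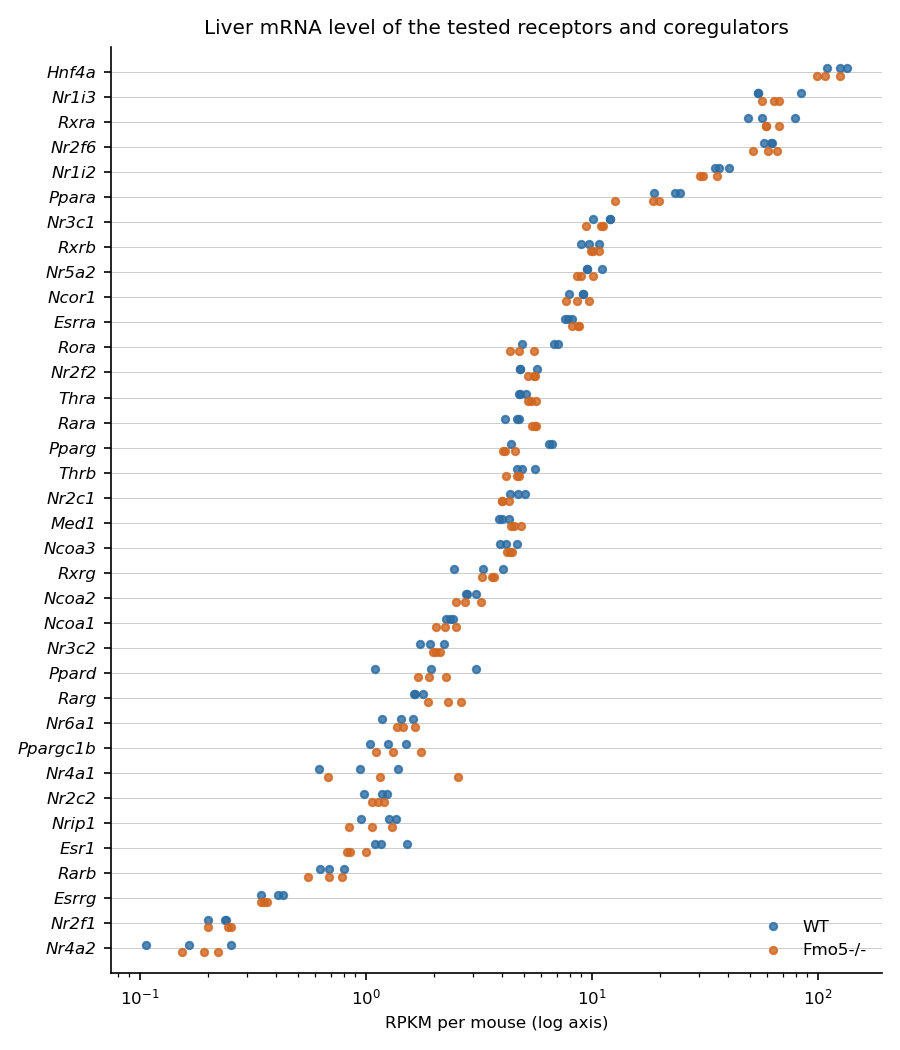
Level of each tested member in each of the 6 mice (RPKM, log axis), with WT in blue and Fmo5-/- in orange, ordered by the mean of all 6. Hnf4a stands at the top and Nr4a2 at the bottom, and for most genes the mice of both genotypes lie among each other.

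Reads that could belong to either of 2 genes were not counted, and 13 members have exons that lie over those of a gene on the opposite strand. The 5 described here were chosen after their values were seen, as those for which reads summed over both single strands exceeded the count used here by the most; among the other 8 this excess was at most 17.0%, for Nr2f1, although Nr2f2 shares 7.46% of its exon bases. Nr1i3 (chr1:171213970-171220701, plus strand), which encodes the constitutive androstane receptor CAR, shares 74.9% of its exon bases with Tomm40l. The shared part is 54.4% for Nr2f6, with Ocel1, 34.1% for Rarb, with Top2b, 30.7% for Nr2c2, with Mrps25, and 5.70% for Thra, with Nr1d1, the clock receptor REV-ERB alpha. Summed over the counts of each strand alone, reads on Nr1i3 exceeded the count used here by 387%, those on Rarb did so by 135%, on Nr2c2 by 129%, on Nr2f6 by 105% and on Thra by 83.5%. Reads fell about evenly on both strands, so the kit did not keep the strand and the added reads cannot be told apart from those of the partner gene. The levels of these 5 genes are therefore uncertain.

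Of the 3 retinoic acid receptors none was called, and the genotypes did not overlap for 2, where 27.4% of all genes tested did not overlap. RAR alpha, beta and gamma bind all-trans retinoic acid, the active form of vitamin A, which the liver stores, and Rarb is a classic target of the receptors themselves. Promoter windows (RefSeq, GRCm38.p6, 250 bases before to 50 after a transcript start) were found for 32 of the 38 members, 52 windows in all. The motif AGGTCA, the core that most nuclear receptors bind, was present on either strand in 9 of these windows (17.3%), in 8 genes, and in 16.3% of all 32851 windows. A direct repeat of GTTCA with 6 bases of any kind between the copies, also searched on both strands, occurs in 0.0761% of all windows and among the members only in that of Rarb. This pattern and its spacing were chosen for Rarb, so the match there was fixed in advance and is no finding. The Rarb window holds no AGGTCA. One window of each retinoic acid receptor is shown, read 5′ to 3′ on the strand of the gene, with the matched motif in capitals. They show the direct repeat of Rarb beside the single core motifs of Rara and Rarg. The windows were picked for their match: that of Rara is window 4 of the gene, whose other windows hold no AGGTCA.
Rara (chr11:98964622-98964921, plus strand): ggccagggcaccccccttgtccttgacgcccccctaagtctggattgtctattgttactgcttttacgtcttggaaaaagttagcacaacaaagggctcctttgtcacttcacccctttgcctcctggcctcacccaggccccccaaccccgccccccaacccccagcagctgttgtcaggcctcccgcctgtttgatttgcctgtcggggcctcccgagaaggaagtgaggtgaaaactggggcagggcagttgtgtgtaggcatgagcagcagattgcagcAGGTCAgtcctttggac
Rarg (chr15:102257473-102257772, minus strand): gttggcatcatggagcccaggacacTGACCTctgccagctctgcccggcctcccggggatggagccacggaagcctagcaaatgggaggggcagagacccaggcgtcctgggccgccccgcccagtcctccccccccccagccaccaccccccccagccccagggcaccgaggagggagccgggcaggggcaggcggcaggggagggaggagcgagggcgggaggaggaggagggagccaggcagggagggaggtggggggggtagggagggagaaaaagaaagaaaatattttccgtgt
Rarb (chr14:16575427-16575726, minus strand): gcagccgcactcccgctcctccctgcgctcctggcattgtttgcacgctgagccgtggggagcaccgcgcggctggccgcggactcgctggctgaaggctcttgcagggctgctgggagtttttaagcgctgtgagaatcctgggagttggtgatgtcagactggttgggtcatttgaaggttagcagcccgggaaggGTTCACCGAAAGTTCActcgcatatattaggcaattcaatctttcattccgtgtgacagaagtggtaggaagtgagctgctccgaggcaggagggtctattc

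In the Rarb window the repeat starts 52 bases before the transcript start and reads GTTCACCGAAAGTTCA. In Rara the match lies after the start, at base 34, and in Rarg it starts 225 bases before and is on the opposite strand. A match is a description of the letters and not a measured site.

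Rara (chr11:98927818-98974942) had 1021, 880.4 and 996 normalized counts in WT mice and 1201, 1162 and 1207 in Fmo5-/- mice. Each Fmo5-/- mouse was above each WT mouse, and the log2 fold change was 0.30 ± 0.083 (SE, 95% interval 0.11 to 0.49, edgeR adjusted p = 0.0900). Rarg (chr15:102234938-102257517) had 342, 375 and 346 in WT and 479.8, 549 and 395 in Fmo5-/- mice, a log2 fold change of 0.42 ± 0.14 with an edgeR adjusted p of 0.121. Here too the genotypes did not overlap, although the third Fmo5-/- mouse lay close to the second WT mouse. Rarb was low, at 109, 99.3 and 127 in WT and 109, 124 and 88.4 in Fmo5-/- mice, and its genotypes overlapped. Of the RAR message per length, Rara made up 65.2 ± 2.15% in WT and 65.5 ± 4.16% in Fmo5-/- liver. The share of Rarb was 9.67%, 9.56% and 11.2% in WT and 7.97%, 8.81% and 6.87% in Fmo5-/- mice, lower in every Fmo5-/- mouse. This share rests on the uncertain length of Rarb, which is the same in all 6 mice.

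Among genes known to respond to retinoic acid, 7 of 9, Rarb itself included, were tested and 0 were called by edgeR or by DESeq2. At an unadjusted edgeR p under 0.05 there were also 0, since the smallest belonged to Tgm2, a transglutaminase, with 4716, 5040.4 and 4726 normalized counts in WT and 5628, 6390.2 and 4849 in Fmo5-/- mice (edgeR adjusted p = 0.268). Lrat, which esterifies retinol for storage, gave a log2 fold change of -0.24 with an edgeR adjusted p of 0.404. Cyp26b1, which degrades retinoic acid, ranged from 244 to 1375 normalized counts in WT and from 97.2 to 546 in Fmo5-/- mice, so the mice within a genotype differed more than the genotypes.

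**Figure D3:**
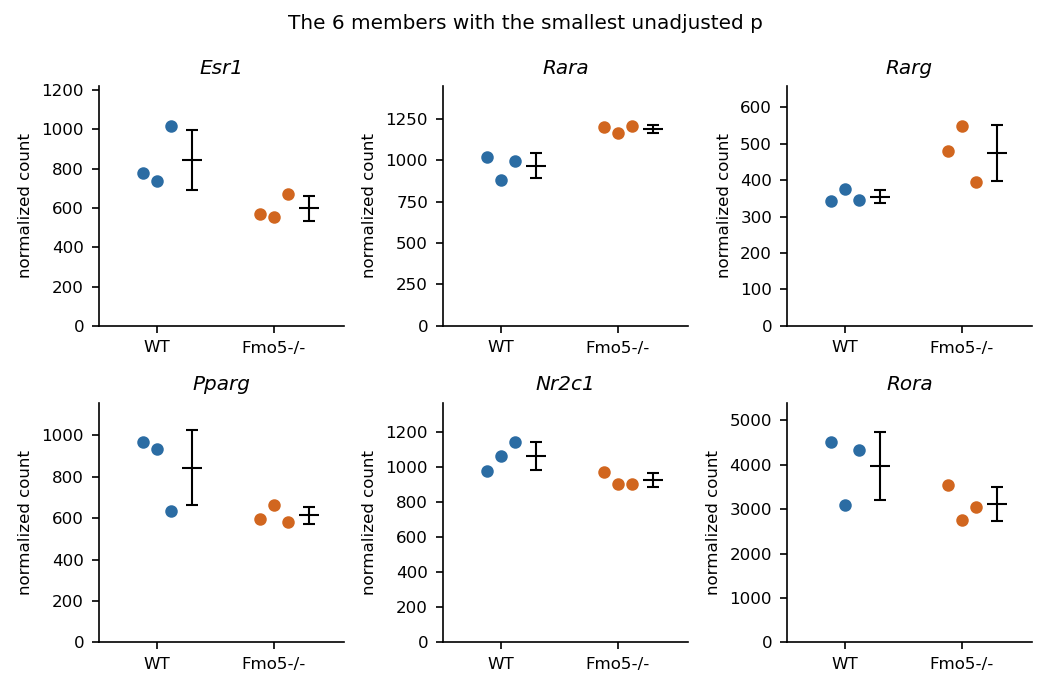
Normalized counts in each mouse for the 6 members with the smallest unadjusted edgeR p (Esr1, Rara, Rarg, Pparg, Nr2c1 and Rora), WT in blue and Fmo5-/- in orange, with the mean and SD in black (n = 3). Axes start at 0, so the separation of Esr1, Rara, Rarg and Nr2c1 can be seen against the level, while Pparg and Rora overlap.

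The PPARs sense fatty acids. All 3 had estimates below 0 and none was called. Ppara (chr15:85734983-85802819), the main switch for hepatic fatty acid oxidation in fasting, had 4394, 4623 and 3541 normalized counts in WT mice and 3492, 2386 and 3725 in Fmo5-/- mice. The third Fmo5-/- mouse lay above the lowest WT mouse, and the estimate was -0.39 ± 0.17 on the log2 scale (95% interval -0.79 to 0.02, edgeR adjusted p = 0.248). Without the second Fmo5-/- mouse, the lowest, it was -0.21. Pparg (chr6:115360951-115490399), the receptor that drives fat storage and fat cell formation, had 965, 932 and 635 in WT and 596, 662 and 583 in Fmo5-/- mice. Its estimate was -0.46 ± 0.15 with an edgeR adjusted p of 0.135, and the third WT mouse lay within the range of the Fmo5-/- mice. Without that mouse edgeR called Pparg, at -0.62 and an adjusted p of 0.0371. The 5 adipocyte markers summed to 21.9, 11.8 and 9.35 CPM in WT and 1.05, 2.88 and 0.885 in Fmo5-/- mice. Only 1 of the 5 passed the filter on low counts, and it was not called. The WT mouse with the lowest Pparg also had the lowest WT sum. The part of adipocyte RNA in the Pparg values was not tested. Ppard, the PPAR found in most tissues, was the most uneven member of the family in WT mice, with 403 to 1128. It had 625 to 831 in Fmo5-/- mice, where Ppara was more uneven for its level.

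Ppara made up 73.8 ± 2.51% of the PPAR message per length in WT and 72.8 ± 5.85% in Fmo5-/- liver, and Pparg 19.2 ± 2.21% and 18.7 ± 4.48%. Neither share separated the genotypes.

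Some of the genes that PPAR alpha controls fell, while the receptor itself was not called. The Ppara estimate of -0.39 was close in size to the median of -0.44 for the 23 targets tested, and a link between them was not tested. With no filter on low counts edgeR called Ppara lower, at -0.40 (edgeR adjusted p = 0.0027), in a fit that called 1989 of 34200 genes. No other alternative called Ppara, and its adjusted p by DESeq2 was 0.144. Of 23 targets tested, 4 fell and 0 rose by edgeR, DESeq2 called 10 lower and 0 higher, and all 23 estimates lay below 0 with a median of -0.44. Values did not overlap between genotypes for 16 of the 23. An estimate below 0 could rest on 1 mouse: Cyp4a14 had 19769, 3043 and 1890.5 normalized counts in WT and 4934, 3765 and 3057 in Fmo5-/- mice. Over all genes tested, 1.37% were called by edgeR, 8.93% by DESeq2 and 27.4% did not overlap, in either direction. Pex11a, a factor for peroxisome division, had 6193, 5320.5 and 4231 normalized counts in WT and 2629.8, 2747 and 2633 in Fmo5-/- mice, a log2 fold change of -0.97 (edgeR adjusted p = 0.0133). Slc25a20, the carnitine carrier of mitochondria, fell by 0.44 on the log2 scale and Cpt2, which frees the acyl group from carnitine inside, by 0.49, both with an edgeR adjusted p of 0.0468. Fgf21, a hormone of the fasted liver, had 157, 102 and 107 in WT and 42.9, 14.7 and 41.2 in Fmo5-/- mice (log2 fold change -1.89, edgeR adjusted p = 0.0494). With any 1 library left out, 0 to 2 of the 23 were called, and 0 without the first Fmo5-/- mouse.

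The RXRs are the common partners. Rxra had 15057, 21288 and 13137 normalized counts in WT and 17946, 15732 and 15712 in Fmo5-/- mice, with a 95% interval of -0.39 to 0.38 for the log2 fold change. The WT mice spread wider than the Fmo5-/- mice, which lay inside their range. Rxrb gave 0.06 (interval -0.14 to 0.26) and Rxrg 0.11 (interval -0.28 to 0.50). Rxra made up 82.1 ± 3.22% of the RXR message per length in WT and 81.7 ± 0.579% in Fmo5-/- liver.

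Thyroid hormone acts in the liver through TR beta and TR alpha, and the mRNA of both was detected. The level per length in WT liver was 5.08 ± 0.489 RPKM for Thrb, and 4.91 ± 0.189 for Thra, whose level is uncertain because reads shared with Nr1d1 were not counted. Thra (chr11:98740638-98769006) had 1089, 1018 and 1020.4 normalized counts in WT mice and 1149.5, 1199.7 and 1113 in Fmo5-/- mice, higher in each Fmo5-/- mouse by a log2 fold change of 0.15 ± 0.076 (edgeR adjusted p = 0.304). Thrb (chr14:17660261-18038090), the main liver form, had 2031, 1691 and 1780.1 in WT and 1681, 1517 and 1716 in Fmo5-/- mice, a log2 fold change of -0.16 ± 0.093 (edgeR adjusted p = 0.351) that was -0.077 without the first WT mouse. Neither estimate passed the test, and they differ in sign. The share of Thra in the TR message per length was 47.7%, 50.6% and 49.4% in WT and 53.8%, 57.4% and 52.5% in Fmo5-/- mice, higher in every Fmo5-/- mouse. With 3 mice against 3, an exact two-sided permutation test cannot give a p below 0.10, so this separation of shares reaches the smallest value and no less. Shares were computed for 7 families, and Thra and Thrb, which add up to the whole, and Rarb were those whose genotypes did not overlap. The overlap of Thra with Nr1d1 touches this share, since a read in the shared exons was counted for neither gene. Nr1d1 itself gave a log2 fold change of -0.16.

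**Figure D4:**
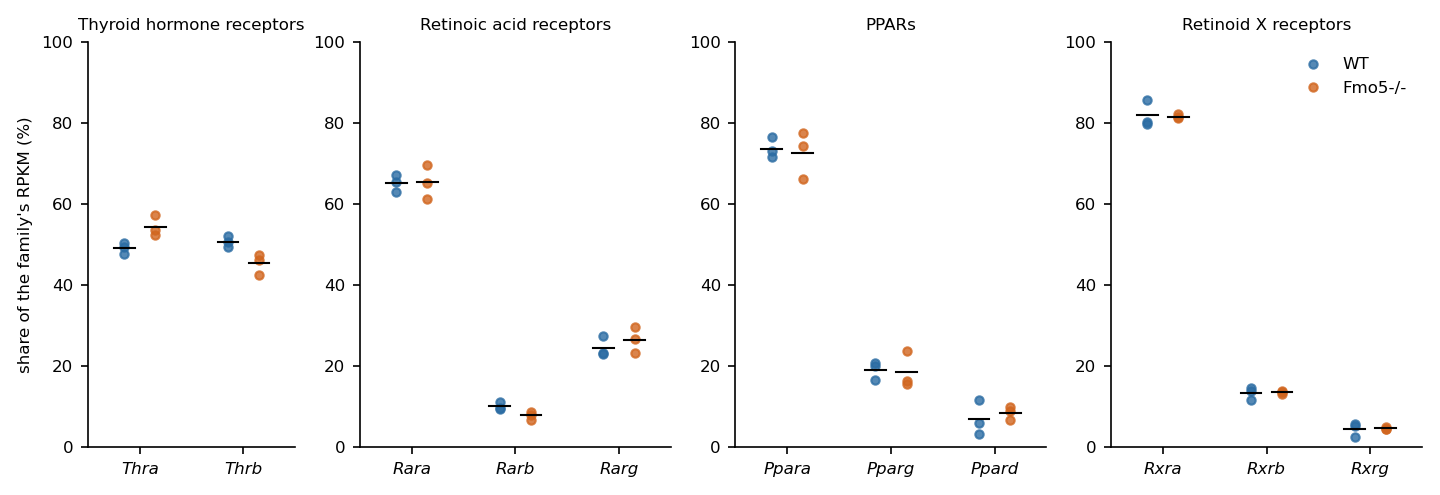
Share of each isotype in the RPKM sum of its family (vertical axis, %) in each mouse, WT in blue and Fmo5-/- in orange, with black bars for the means (n = 3). All 3 Fmo5-/- points lie above the WT points for Thra and below them for Thrb and Rarb, while the PPAR and RXR shares overlap.

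Of the 7 listed genes that thyroid hormone controls in liver, 3 fell and 0 rose by edgeR, where 1.37% of all genes tested were called. DESeq2 called 5 lower, against 8.93% of all genes. Values did not overlap between genotypes for 5 of the 7, against 27.4% of all genes tested. Hr, which encodes the corepressor hairless, a partner of thyroid hormone and vitamin D receptors, had 179, 90.4 and 134 normalized counts in WT and 27.0, 29.4 and 28.5 in Fmo5-/- mice. The lowest WT mouse lay far above all 3 Fmo5-/- mice, for a log2 fold change of -2.24 ± 0.28 (edgeR adjusted p = 0.00977). Dio1, the deiodinase that forms active thyroid hormone, fell by 0.70 on the log2 scale and Gpd2, the mitochondrial glycerol phosphate dehydrogenase, by 0.49, with edgeR adjusted p of 0.0356 and 0.0430. Thrsp, a factor of lipid synthesis, had 19116, 22803 and 25949.6 in WT and 14295, 12738 and 18029 in Fmo5-/- mice (edgeR adjusted p = 0.0807). The 7 genes had a median of -0.59. Without the first Fmo5-/- mouse 0 of the 7 were called, without the first or the second WT mouse 1.

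The xenobiotic receptors PXR and CAR switch on drug-metabolizing enzymes. Nr1i2, for PXR, had 5071, 4567 and 4383 normalized counts in WT and 3766, 4463 and 3881 in Fmo5-/- mice, a log2 fold change of -0.21 ± 0.096 (edgeR adjusted p = 0.240). Only the second Fmo5-/- mouse reached the WT range. Nr1i3, for CAR, had 4579, 2947 and 2953 in WT and 3664, 3460.4 and 3083 in Fmo5-/- mice, so the first WT mouse alone stood high. Its estimate was -0.04 from the count of both strands and 0.05 and 0.06 from the counts of either strand alone, which hold the reads shared with Tomm40l. Of 15 tested targets of these receptors, 1 rose and 0 fell by edgeR, and DESeq2 called 2 higher. The share of all genes called was 1.37% by edgeR and 8.93% by DESeq2. Both shares of this list were higher, but they rest on 1 and 2 genes of the 15. The 1 was Cyp2c55, a cytochrome P450, with 479, 519 and 435 in WT and 948, 860.0 and 695 in Fmo5-/- mice (log2 fold change 0.81, edgeR adjusted p = 0.0275). It was the call of this list that was lost in 4 of the 6 fits with 1 library left out: without the first or the third WT mouse, or without the first or the second Fmo5-/- mouse. Gadd45b, a stress gene, gave 0.98 with an edgeR adjusted p of 0.114, Slco1a4, an uptake carrier, 0.64, and Abcc2, an export pump, -0.23, none of them called by edgeR.

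Hnf4a had 29508, 31790.2 and 25916 normalized counts in WT and 29547, 23528 and 25323 in Fmo5-/- mice, and its interval of -0.42 to 0.11 leaves out a loss as large as 0.5 on the log2 scale. Rora, for the orphan receptor ROR alpha, had 4502, 3104 and 4326 in WT and 3543, 2767 and 3039.5 in Fmo5-/- mice (log2 fold change -0.35 ± 0.15, edgeR adjusted p = 0.218). The second mouse was lowest in either genotype, and the groups overlapped. Hnf4g, the second HNF4 gene, was at 2.23 to 11.2 normalized counts, 3 counts being 2.75 to 3.35 normalized counts, and made up 0.0458% of the HNF4 message in WT. Of 12 HNF4 alpha targets, 1 fell and 0 rose by edgeR, and DESeq2 called 4 lower, beside 1.37% and 8.93% of all genes. Values did not overlap between genotypes for 7 of the 12, against 27.4% of all genes tested. The gene called by edgeR was Mttp, which loads lipid onto apolipoprotein B, with 16669, 17941 and 15560.5 in WT and 12648, 9820.3 and 10855 in Fmo5-/- mice (log2 fold change -0.59, edgeR adjusted p = 0.0468). Leaving out any 1 library other than the third Fmo5-/- mouse left 0 of the 12 called. Baat, which joins bile acids to taurine, gave -0.48, Apoc3, an apolipoprotein, -0.31 and F7, a clotting factor, 0.25, with edgeR adjusted p of 0.0552, 0.123 and 0.113.

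Esr1, for oestrogen receptor alpha, had the smallest p of the members. It had 776, 735 and 1017 normalized counts in WT mice and 568, 554 and 671 in Fmo5-/- mice, and each Fmo5-/- mouse was below each WT mouse. The log2 fold change was -0.50 ± 0.14 (95% interval -0.81 to -0.19), a mean 29.1% lower, with an adjusted p of 0.0891 by edgeR and 0.0212 by DESeq2. Esr1 (chr10:4611593-5005614) was read at 1.26 ± 0.229 RPKM in WT and 0.897 ± 0.0952 in Fmo5-/- liver. Nr3c1, the glucocorticoid receptor, stood higher, at 11.4 ± 1.09 and 10.6 ± 1.01 RPKM, and gave a log2 fold change of -0.11 (interval -0.35 to 0.12). Nr3c2, the mineralocorticoid receptor, gave 0.06 (interval -0.18 to 0.31).

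Of 14 glucocorticoid receptor targets, 0 were called by edgeR, while DESeq2 called 1 higher and 1 lower, against 8.93% of all genes. Tdo2, which opens the ring of tryptophan, had 94904, 84039 and 73247 normalized counts in WT and 61480.0, 56239 and 63117 in Fmo5-/- mice (edgeR adjusted p = 0.0709). Mt1, a metallothionein, had 279.6, 282 and 223 in WT and 607, 445 and 343 in Fmo5-/- mice (edgeR adjusted p = 0.0757). The genotypes separated for these 2 genes of the 14, in opposite directions, where 27.4% of all genes tested separated. Mt2, the second metallothionein, gave 1.44 and Zbtb16, a zinc finger factor, 0.30 on the log2 scale, with edgeR adjusted p of 0.135 and 0.539.

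The oestrogen-related receptors work with PGC-1 coactivators on genes of energy metabolism. Esrra had 1684, 1576 and 1618 normalized counts in WT and 1806, 1691 and 1798 in Fmo5-/- mice, not overlapping by a narrow margin (log2 fold change 0.12 ± 0.074, edgeR adjusted p = 0.389). Esrrg, at 104 to 131 in WT and 105 to 111 in Fmo5-/- mice, overlapped.

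Among the 7 orphan receptors, Nr2c1, for TR2, separated the genotypes, with 977, 1062 and 1138 normalized counts in WT and 968, 899.5 and 899 in Fmo5-/- mice. The lowest WT mouse and the highest Fmo5-/- mouse were almost level (log2 fold change -0.20 ± 0.086, edgeR adjusted p = 0.217). Its partner Nr2c2, for TR4, gave an interval of -0.25 to 0.25. The COUP factors Nr2f1, Nr2f2 and Nr2f6 gave 0.04, 0.10 and -0.04, and Nr2f6 was read at 91.96% of their summed RPKM in WT and 91.2% in Fmo5-/- liver, with the doubt over its length stated above. Nr5a2, for LRH-1, a receptor of bile acid synthesis genes, gave -0.12 (interval -0.34 to 0.09) and Nr6a1, for germ cell nuclear factor, 0.09 (interval -0.20 to 0.37).

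Nr4a1 and Nr4a2 are immediate early genes that respond within minutes to stimuli such as glucagon, and Nr4a1 had the widest interval of all members. Nr4a1 had 161, 106 and 239 normalized counts in WT and 439, 197 and 117 in Fmo5-/- mice. One Fmo5-/- mouse was the highest and another the second lowest of all 6, and the log2 fold change of 0.57 ± 0.54 has an interval from -0.76 to 1.90. Nr4a2 had 21.2, 50.2 and 32.7 in WT and 38.2, 44.1 and 30.4 in Fmo5-/- mice. Of 12 other immediate early genes tested, 0 were called by edgeR or DESeq2 and 0 had an unadjusted edgeR p under 0.05. Jun, Egr1 and Fosb gave -0.24, -0.80 and -0.82 and Ier3 0.39 on the log2 scale, and Egr1 ran from 537 to 1777 among the WT mice. The first WT mouse, which had the most Egr1, had the least Fosb and the least Nr4a2.

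Of the 5 coactivators and 2 corepressors, 0 were called, and 1 had genotypes that did not overlap, where 27.4% of all genes tested did not. Med1, the Mediator subunit that binds receptors, had 1663, 1848 and 1712 normalized counts in WT and 1874, 1938 and 2078 in Fmo5-/- mice, above WT in each mouse (log2 fold change 0.17 ± 0.080, edgeR adjusted p = 0.248). The p160 coactivators Ncoa1, Ncoa2 and Ncoa3 gave -0.06 ± 0.091, -0.03 ± 0.11 and 0.03 ± 0.086. Ncoa3 was read at 44.8 ± 1.47% of their summed RPKM in WT and 46.1 ± 3.43% in Fmo5-/- liver. Ppargc1b, for PGC-1 beta, a coactivator of lipid synthesis and respiration, had 204, 295 and 245 in WT and 342, 216 and 257 in Fmo5-/- mice. Ncor1, the corepressor that recruits histone deacetylase 3, had 5689, 5716 and 4928 in WT and 6021, 4775 and 5334 in Fmo5-/- mice, and an interval of -0.26 to 0.22. Nrip1, for the corepressor RIP140, gave -0.15 (interval -0.57 to 0.26).

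Vdr, for the vitamin D receptor, was at 0, 1.12 and 1.02 normalized counts in WT and 3.73, 3.67 and 0.982 in Fmo5-/- mice, at or close to 3 counts per library, so no fold is given and any difference was not detectable at this depth.

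Of 18 nuclear receptors outside the 38, 10 were tested, 0 were called by edgeR and DESeq2 called 1 lower, Esrrb, with 40.2, 43.5 and 42.9 normalized counts in WT and 22.4, 13.8 and 23.6 in Fmo5-/- mice (edgeR adjusted p = 0.0756). Of all genes, DESeq2 called 8.93%, and 21.8% had an unadjusted edgeR p under 0.05. At an unadjusted edgeR p under 0.05 were Esrrb, Nr1h2, for the sterol receptor LXR beta, at 0.27, and Nr1h4, for the bile acid receptor FXR, at -0.27, while Nr1d2, a clock receptor, gave -0.33. Of 26 further coregulators, 0 were called by edgeR and DESeq2 called 1 lower, Ncoa4, with 1625, 1683 and 1397 in WT and 1185, 913 and 1135 in Fmo5-/- mice (edgeR adjusted p = 0.0563), so this list was below the 8.93% that DESeq2 called of all genes. Ncoa4 is known as a coactivator and as the cargo receptor for ferritin breakdown. Kmt2d, a histone methyltransferase, Crebbp and Kat2a, both histone acetyltransferases, gave 0.27, 0.21 and 0.17 on the log2 scale.

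**Figure D5:**
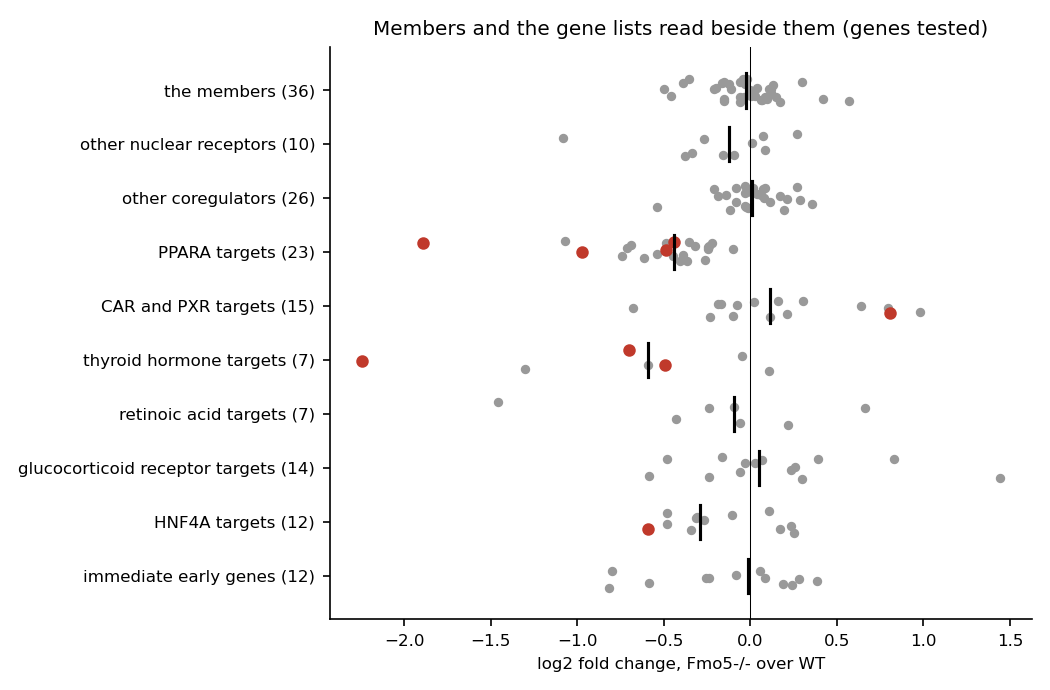
Log2 fold change of each tested gene, Fmo5-/- over WT, for the 36 members and for 9 lists of related genes, with the number tested in brackets, black bars for the medians and red points for genes called by edgeR at an adjusted p under 0.05. No member is red, while the targets of PPAR alpha have a median of -0.44 and those of thyroid hormone one of -0.59.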

How the data were processed

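RNA of 6 mouse livers, 3 per genotype, was sequenced as 75-base single reads. The authors clipped adapters, aligned the reads to mm10 by means of STAR (version 2.6.0c), and the same program counted them per gene; these raw counts were deposited for each library, for both strands together and for each strand. A second deposited table holds, as signal columns, the counts after scaling by a size factor of each library, and the authors' own comparison as log2 fold changes with standard errors, a score (the Wald statistic) and p-value columns; the signal was used only to check the counts and the comparison was not used.

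Counts of both strands were tested with edgeR 4.0.16 in R 4.3.3 (robust quasi-likelihood test, filterByExpr with a minimum count of 10, TMM scaling, genotype as the only term). Adjusted p is Benjamini-Hochberg over all 16734 genes tested, and a call is an adjusted p under 0.05. DESeq2 1.42.0, other scalings and filters, each strand and each library left out were alternatives, and the fit was tested on simulated data. The main design follows the counts with edgeR where the authors used DESeq2. Reads on genes were 66.2% to 69.2% of the reads in each count table. Exon lengths and positions came from GENCODE vM21 (mm10); for Esrra, Nr3c1 and Rxrb its gene version differs from that of the counts. RPKM used exon bases outside other genes, since STAR drops ambiguous reads. The members, gene lists and marker lists (9 lists of cell type markers) were chosen with earlier results of these data known. Named genes are the 38 members, Fmo5 and, from each gene list, the 4 with the smallest unadjusted edgeR p. Nr1d1 was added for its overlap with Thra, and Cyp4a14 for its spread among the WT mice. The result of 1 gene named by this rule is not reported here.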

Additional observations from a re-analysis of the deposited data

How the results depend on the processing

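No paired analysis was possible because each mouse has a number of its own and none is shared between genotypes. Fmo5 was called under every alternative, at -5.10 to -4.91, and no member was called higher under any. Members called lower were 0 as reported, 1 by DESeq2 (Esr1) and 0 to 1 with 1 library left out (Pparg, without WT replicate 3). With no filter on low counts they were 4 of 38 (Esr1, Pparg, Ppara and Rora). That is a larger share than the 1989 called of all 34200 genes in that fit. The filter would have passed 36 of the 38 members but only 16734 of those genes, so the shares are not alike. Over all genes, 229 were called as reported, 1396 by DESeq2, 1989 with no filter, 53 with a mean of 500 set before the fit and 31 (without Fmo5-/- replicate 1) to 763 (without Fmo5-/- replicate 3) with 1 library left out. Calls among the gene lists moved too: PPAR alpha targets 4 as reported, 10 by DESeq2, 12 with no filter, 1 with the mean of 500, 2 on the second strand and 0 to 2 with 1 library left out; thyroid hormone targets 3, then 5 by DESeq2, 0 with the mean of 500 and 0 to 4 with 1 library left out; HNF4 alpha targets 1, then 4 by DESeq2, 5 with no filter, 0 with the mean of 500, 2 on the first strand and 0 to 1 with 1 library left out; CAR and PXR targets 1, then 2 by DESeq2 and with no filter, and 0 to 2 with 1 library left out. From 0 as reported above, glucocorticoid receptor targets had 2 by DESeq2, 3 with no filter, 1 on the first strand and 0 to 2 with 1 library left out, other nuclear receptors 1 by DESeq2 and 4 with no filter, other coregulators 1 by DESeq2, with no filter and on the first strand, and immediate early genes 1 with no filter. The cause of these moves was not tested.

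Signs changed only for members close to 0 or with wide spread, and none of these was called. Nr2c2 gave -0.013 by DESeq2, -0.0037 with RLE factors, -0.010 with no filter, -0.081 on the first and -0.043 on the second strand, and Rxra gave 0.0038 without the 20 most abundant genes. With the mean of 500, Ncoa1 gave 0.0065, Nr2f6 0.023, Rxra 0.064, Ncoa2 0.033, Nr1i3 0.028 and Ncor1 0.046. On the first strand, Nr2f1 gave -0.029, Nr2f6 0.0087, Nr1i3 0.046 and Rxra 0.012, and on the second Esrrg 0.0037, Nr1i3 0.060, Ncoa2 0.015, Nr4a2 -0.11, Nr2f6 0.029, Ncor1 0.0024 and Rxra 0.011. With 1 library left out, log2 fold changes ran from -0.11 to 0.91 for Nr4a1, -0.027 to 0.20 for Nr6a1, -0.070 to 0.27 for Ppargc1b, -0.057 to 0.30 for Rxrg, -0.13 to 0.0090 for Ncoa1, -0.0097 to 0.16 for Nr3c2, -0.13 to 0.051 for Nr2f6, -0.13 to 0.48 for Nr4a2, -0.18 to 0.056 for Rarb, -0.023 to 0.10 for Ncoa3, -0.14 to 0.054 for Ncoa2, -0.15 to 0.21 for Nr1i3, -0.033 to 0.14 for Nr2f1, -0.11 to 0.061 for Ncor1, -0.36 to 0.37 for Ppard, -0.083 to 0.077 for Nr2c2 and -0.14 to 0.23 for Rxra. Some members kept their sign with 1 library left out while the size moved widely. These ranges were -0.32 to -0.0085 for Nrip1, -0.20 to -0.044 for Nr5a2, -0.19 to -0.036 for Nr3c1 and 0.0074 to 0.14 for Rxrb. They were -0.25 to -0.083 for Hnf4a, 0.058 to 0.19 for Nr2f2 and -0.24 to -0.083 for Esrrg. Of the results for single members, 186 with 1 library left out and 216 under the other alternatives kept their sign and their side of the threshold. The sign changed in 29 and 23, and 1 and 5 kept the sign but became called.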
